A study of Bos taurus with 28 samples.

Results

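Of the 132 miRNAs measured in bovine milk extracellular vesicles (EVs), 10 are described here. They carry numbers that were given to bovine or ruminant sequences and stand outside the miR-2285 family. They are bta-miR-2401, bta-miR-2478, bta-miR-2890, bta-miR-2898, bta-miR-2904, bta-miR-3432a, bta-miR-6529a, bta-miR-10174-3p, bta-miR-11976 and bta-miR-11980. They were taken by name from the table of all miRNAs, by a rule that sets no limit on a measured value, although earlier results of these data were known when the rule was written. The comparison was made with the 99 miRNAs of the let-7 family and of numbers below 1000, most of which are conserved among mammals, and with the 23 other miRNAs of numbers from 1000 upwards. These 23 include further miRNAs with bovine numbers, among them miR-2340 and the miR-2284 and miR-2285 families.

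The study asked whether the miRNA cargo of milk EVs differs between milking sessions and with the somatic cell count (SCC) in cows that were free of mastitis on entry. Skimmed milk of 4 untreated cows (Bos taurus) gave 28 small RNA libraries, 14 from evening milkings and 14 from morning milkings of the same cows and days. Cow 3 had 6 libraries, Cow 4 had 8, Cow 2 had 8 and Cow 1 had 6, over 4 consecutive days. Day 3 of Cow 3 and day 2 of Cow 1 were not analysed here. The labels and methods give no breed or age. Each cow stands for itself, since its libraries come from successive milkings of that animal, and a p-value between cows compares their gap with the variation from milking to milking.

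A miRNA is cut as a short double strand from a hairpin precursor, and 1 strand then guides silencing proteins to messenger RNAs that pair with its seed. Mammary epithelial cells release part of their miRNAs into milk inside vesicles, whose membrane shields the RNA from degradation. miRNAs with high numbers were registered late, mostly from deep sequencing of few species, and some such entries may match fragments of other small RNAs such as transfer or ribosomal RNA. The functions of the 10 miRNAs are little described, and none is stated here.

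The read totals over the 132 miRNAs lay between 101968 and 325211 per library (median 158620). The levels are log2 CPM (read counts scaled to a common library size), to which the authors' software added a prior of 2 reads at the mean library size, so that a miRNA without reads stands at 3.55 in every library. For this reason differences between low levels understate the fold change. A count of 3 reads corresponds to 8.35 to 32.4 CPM, depending on the library, and intervals from reads cover counting error only. As a check of the tissue, the 7 listed miRNAs of mammary epithelium summed to 101279 to 161942 CPM, and each had reads in every cow. The sum of the 5 measured miRNAs from a list of 7 immune cell miRNAs was higher in Cow 3 (3294 to 7585 CPM) than in Cow 4 (1646 to 2531 CPM), Cow 2 (1327 to 2880 CPM) and Cow 1 (1735 to 2584 CPM). Each of the 5 had reads in every cow, and miR-223 and miR-142-5p of that list were not measured. miR-181a, with a mean level of 10.69, made up the largest part of the sum. In the F test over the cows described below, miR-181a, miR-181b, miR-342 and miR-155 passed and miR-146b did not (adjusted p = 0.226). That test has no direction, and the level of each of these miRNAs by cow is not given here. The summed level of 3 red blood cell miRNAs measured of 5 listed had a median of 1427 CPM in Cow 3, against 897 to 1176 CPM in the other cows, and that of 3 stroma miRNAs measured of 5 listed had a median of 6785 CPM, against 5330 to 6190 CPM. In both lists the libraries of Cow 3 overlapped with those of each other cow. Each of these miRNAs had reads in every cow, though not necessarily in every library. The part of these shifts in the differences of Cow 3 given here was not tested. In bulk EV RNA, fewer vesicles with a miRNA and less of the miRNA per vesicle cannot be told apart.

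In the current RefSeq annotation of the bovine assembly ARS-UCD2.0, precursors of 8 of the 10 miRNAs were found, and miR-2904 and miR-10174 were not matched. The precursor of miR-2401 overlaps NGLY1, which encodes an enzyme that removes sugar chains from misfolded glycoproteins. miR-3432a has 2 precursors, of which 1 overlaps TP53BP1, a DNA repair gene, and the other overlaps HIP1, a gene of clathrin-mediated endocytosis. The precursor of miR-6529a overlaps GSK3B, a kinase gene of insulin and Wnt signalling, and also the precursor of miR-6529b, so that reads of these miRNAs may share a source. The precursor of miR-11976 overlaps PATZ1, a transcription factor gene, and that of miR-11980 overlaps BRAT1, a gene of the DNA damage response. The remaining precursors overlap no other annotated gene. That of miR-2478 lies between NKAIN2 and TRDN, that of miR-2890 next to FOXK1 and that of miR-2898 next to MIR2404-2. Strand was not used in this match, and reads were not assigned to precursors.

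The 10 miRNAs made up a small part of the cargo. They held between 0.431% and 1.08% of the reads of a library (median 0.674%) and 0.704% of all reads. Their levels fell into a high and a low set. miR-2478 had a mean level of 11.34 ± 0.52 (log2 CPM, SD, n = 28) and rank 37 of 132, with 12914 reads over all libraries. miR-10174-3p had a mean of 11.09 ± 0.31, rank 41 and 10949 reads. miR-2898 had a mean of 10.47 ± 0.43, rank 51 and 7034 reads.

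miR-3432a stood between the sets, at 7.92 ± 0.76, rank 78 and 1258 reads. The remaining 6 miRNAs all had a mean level below 7 and ranks from 103 to 130. miR-2401 had a mean of 6.15 ± 1.09 with 366 reads, and miR-2904 had 6.12 ± 1.10 with 356 reads. These neighbours in the order did not differ beyond their spread. miR-6529a had 5.82 ± 0.71 with 237 reads, miR-2890 had 5.15 ± 1.13 with 168 reads, miR-11980 had 4.97 ± 0.88 with 114 reads and miR-11976 had 4.82 ± 0.96 with 118 reads. The last 3 lay closer to each other than their SD. No read was found for miR-11976 in 6 libraries, for miR-2890 in 5, for miR-11980 in 3 and for miR-6529a in 1, while the other 6 miRNAs were read in all 28 libraries.

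**Figure D1:**
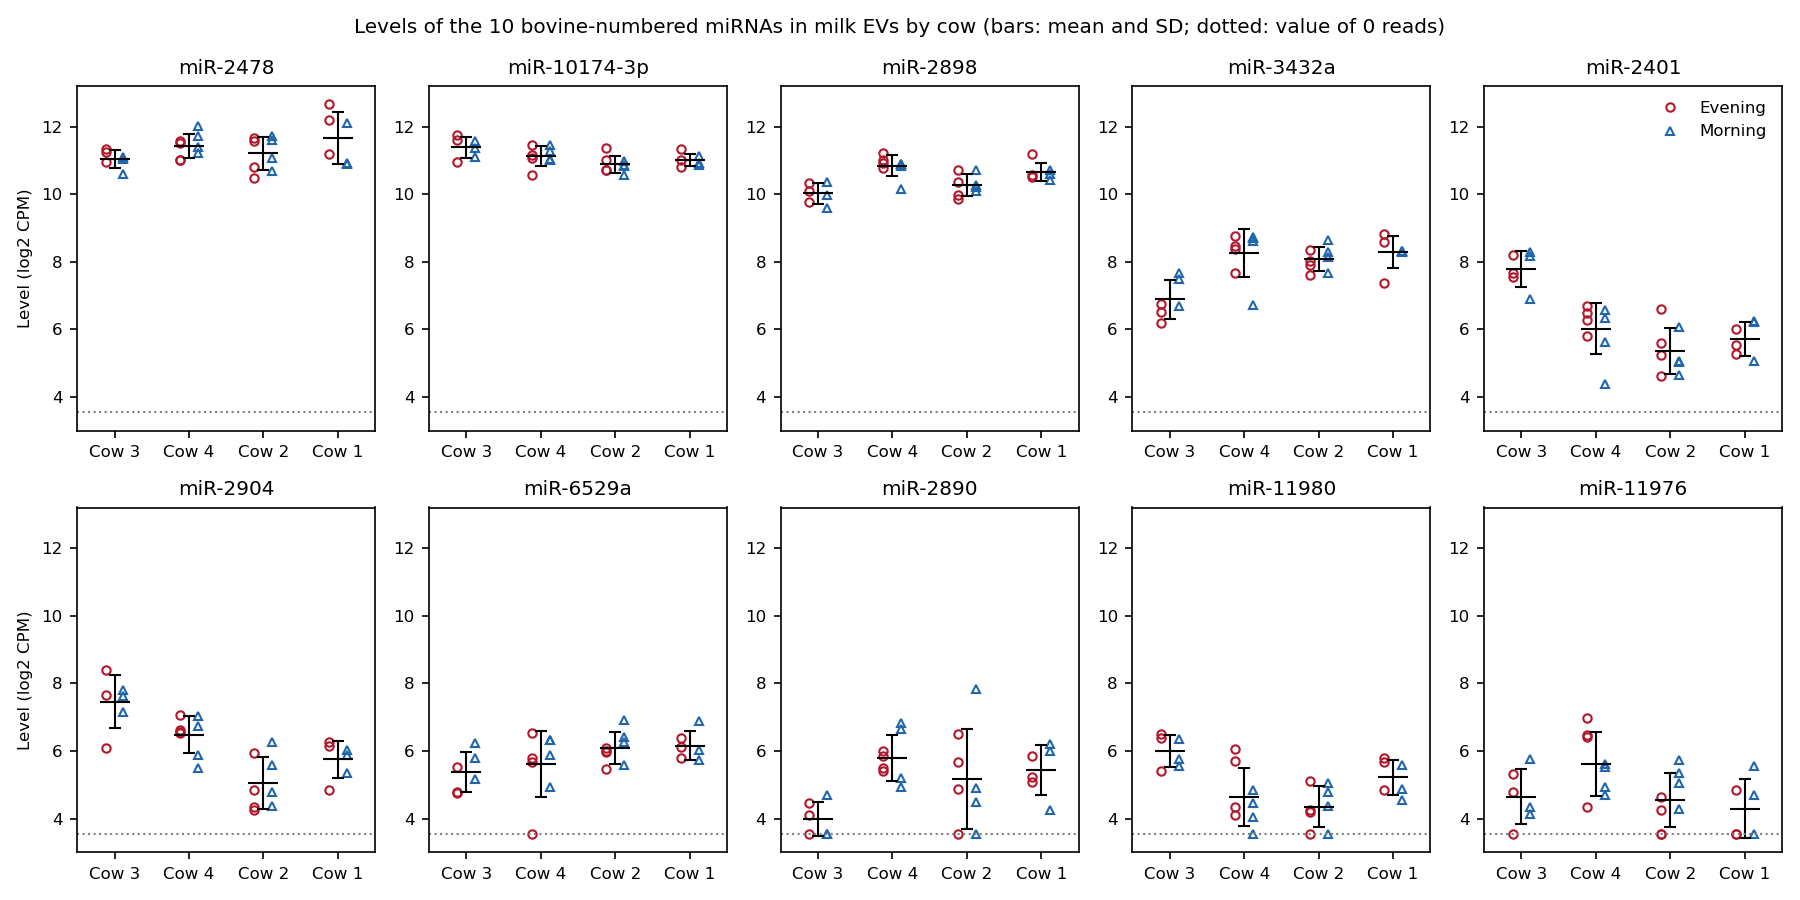
Levels (log2 CPM) of the 10 miRNAs in the 28 libraries, by cow, with evening libraries as circles left of the morning libraries as triangles; bars give the mean and SD of each cow, and the dotted line at 3.55 is the value of 0 reads. miR-2401 of Cow 3 (6.92 to 8.28) lies above all libraries of the other cows, and miR-2890 of Cow 3 reaches no more than 4.69.

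The members differed in how much of their variation lay between the 4 cows. The share of variance between cows was 69.3% for miR-2401, 66.9% for miR-2904, 55.5% for miR-2898, 53.4% for miR-3432a and 50.8% for miR-11980. It was 35.9% for miR-10174-3p, 35.0% for miR-2890, 29.9% for miR-11976, 20.3% for miR-6529a and 18.8% for miR-2478. The median share was 43.4% over the 10 miRNAs, 29.7% over the 99 miRNAs of low number, 23.5% over the 23 others of high number and 26.8% over all 132. Low levels carry more counting error, so the shares were also set side by side by level. Below a mean level of 7 the median was 42.9% over 6 of the described miRNAs and 18.7% over the 32 others, and from 7 upwards it was 44.7% over 4 and 28.1% over 90. These medians are a description, with no test of the difference.

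The SD between libraries of a cow had a median of 0.65 over the 10 miRNAs and 0.49 over all 132, while counting error alone gives a median of 0.40 and 0.18. Below a mean level of 7, the median SD was 0.67 over the 6 described miRNAs and 0.66 over the 32 others. The low miRNAs of the group thus had a median spread close to that of other miRNAs of low level.

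**Figure D2:**
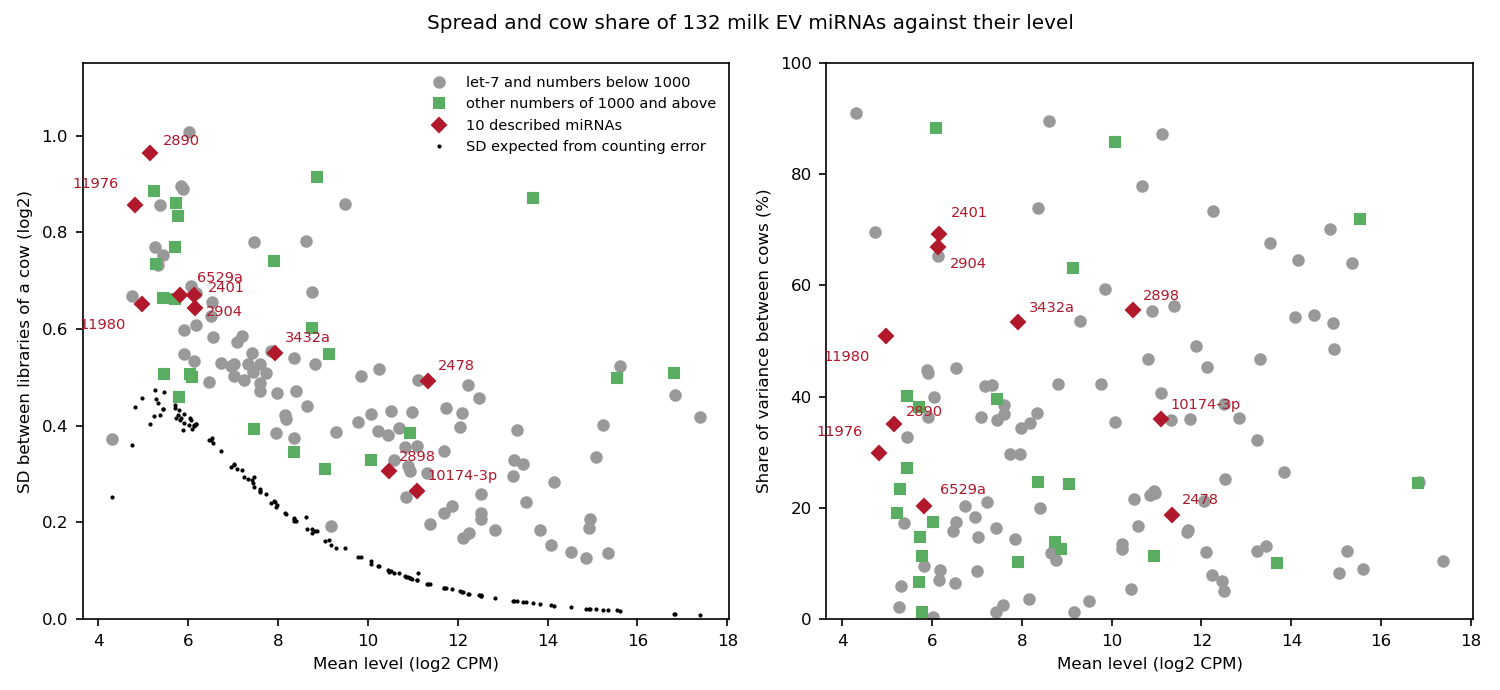
SD between libraries of the same cow (left, log2) and share of variance between cows (right, percent) against the mean level (log2 CPM) of each of the 132 miRNAs, with the 10 described miRNAs as labelled diamonds, the 99 let-7 and low-numbered miRNAs as circles, the 23 others as squares and the SD expected from counting error as dots. The SD falls with the level in all groups, and miR-2401 (69.3%) and miR-2904 (66.9%) have the highest cow shares of the 10.

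A moderated F test over the 4 cows (limma, Benjamini-Hochberg adjustment over the 132 miRNAs, FDR below 0.05) called 62 of 132 miRNAs, or 47%. Of the 10 bovine-numbered miRNAs it called 8, of the 99 low-numbered ones 47 (47.5%) and of the 23 others 7 (30.4%). miR-2478 (adjusted p = 0.191) and miR-6529a (adjusted p = 0.198) did not pass. In the contrasts of single cows from the same fit, 18 of the 60 tests of these miRNAs passed, 16 of them between Cow 3 and another cow. Over all 132 miRNAs the 6 contrasts gave 149 calls, with 34 for Cow 3 minus Cow 4, 40 for Cow 3 minus Cow 2 and 30 for Cow 3 minus Cow 1. With the evening and morning library of each cow and day as a block, the F test called 6 of the 10 and the contrasts 16 of 60. The counts over all 132 miRNAs with this block are not given here, so these member counts have no background beside them. The contrasts of Cow 3 share its 6 libraries and are not independent of each other. Without Cow 3, the F test called 3 of the 10 miRNAs and 32 of the 132.

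Counted over the contrasts, Cow 3 was higher than Cow 4 in 3 of the 10 miRNAs (11.4% of all 132) and lower in 3 (14.4% of all), or 6 in either direction (25.8% of all). It was higher than Cow 2 in 4 (16.7% of all) and lower in 1 (13.6% of all), or 5 in either direction (30.3% of all). It was higher than Cow 1 in 2 (9.85% of all) and lower in 3 (12.9% of all), or 5 in either direction (22.7% of all). Cow 4 was higher than Cow 2 in 2 (9.85% of all) and lower in 0 (9.09% of all), which makes 2 in either direction (18.9% of all). Cow 4 was higher than Cow 1 in 0 (2.27% of all) and lower in 0 (3.03% of all), and Cow 2 was higher than Cow 1 in 0 (3.03% of all) and lower in 0 (6.82% of all), or 5.3% and 9.85% of all in either direction.

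miR-2401 was higher in Cow 3 than in each other cow. Its lowest, median and highest levels were 6.92, 7.91 and 8.28 in the 6 libraries of Cow 3, against 4.40, 6.31 and 6.68 in the 8 of Cow 4, 4.63, 5.15 and 6.60 in the 8 of Cow 2 and 5.06, 5.77 and 6.25 in the 6 of Cow 1. Every library of Cow 3 lay above every other library, a pattern that 2.27% of all miRNAs (3 of 132) showed. The pooled reads gave 219 CPM (95% exact Poisson interval 190 to 251) in Cow 3, 54.5 CPM (43.0 to 68.1) in Cow 4, 31.6 CPM (23.1 to 42.3) in Cow 2 and 40.2 CPM (29.1 to 54.2) in Cow 1. Of the 366 reads of this miRNA, 201 came from Cow 3. The log2 difference was 1.77 (SE 0.34, adjusted p = 0.000231) for Cow 3 minus Cow 4, 2.43 (SE 0.34, adjusted p = 1.14e-06) for Cow 3 minus Cow 2 and 2.07 (SE 0.37, adjusted p = 6.40e-05) for Cow 3 minus Cow 1. The F test over all cows gave an adjusted p of 6.23e-06. No pair of the other cows passed, although Cow 4 minus Cow 2 passed without the morning of day 1 of Cow 4, the lowest library of that cow (adjusted p = 0.0193, against 0.140 with it).

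miR-2904 was also highest in Cow 3, and Cow 4 stood above Cow 2. The lowest, median and highest levels of miR-2904 were 6.08, 7.64 and 8.40 in Cow 3, against 5.48, 6.59 and 7.06 in Cow 4, 4.26, 4.81 and 6.26 in Cow 2 and 4.86, 5.95 and 6.27 in Cow 1. The evening library of day 1 was the lowest of Cow 3 and overlapped with all 3 other cows, whereas the other 5 libraries of Cow 3 exceeded all those of the other cows. The log2 difference was 2.41 (SE 0.35, adjusted p = 2.23e-06) for Cow 3 minus Cow 2, 1.70 (SE 0.38, adjusted p = 0.00125) for Cow 3 minus Cow 1 and 1.44 (SE 0.33, adjusted p = 0.00164) for Cow 4 minus Cow 2. The difference of 0.97 for Cow 3 minus Cow 4 (SE 0.35, adjusted p = 0.0426) was lost with the evening and morning library of each cow and day as a block (adjusted p = 0.125). It was also lost without any 1 of 9 libraries (adjusted p between 0.0536 and 0.128), namely the morning of day 1, the evening of day 2 and both of day 4 of Cow 3, and the morning of day 1, the evening of day 2, both of day 3 and the evening of day 4 of Cow 4.

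Higher than each of the other cows in all 3 contrasts were 6 of 132 miRNAs in Cow 3 (4.55%), among them miR-2401 and miR-2904. Lower in all 3 contrasts were 5 of 132 (3.79%), among them miR-3432a.

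miR-3432a was thus the member that was lower in Cow 3 than in each other cow. In Cow 3 its lowest, median and highest levels were 6.19, 6.73 and 7.68, against 6.73, 8.54 and 8.77 in Cow 4, 7.62, 8.09 and 8.66 in Cow 2 and 7.39, 8.33 and 8.81 in Cow 1. Of the 2 highest libraries of Cow 3, both from mornings, that at 7.68 reached into the ranges of all 3 other cows and that at 7.50 into those of Cow 4 and Cow 1, while the other 4 (6.19 to 6.76) lay below all libraries of those cows but the lowest of Cow 4 (6.73). The log2 difference was -1.37 (SE 0.29, adjusted p = 0.000675) for Cow 3 minus Cow 4, -1.20 (SE 0.29, adjusted p = 0.00160) for Cow 3 minus Cow 2 and -1.40 (SE 0.31, adjusted p = 0.00125) for Cow 3 minus Cow 1. Cows 4, 2 and 1, with means of 8.26, 8.09 and 8.29, differed by less than the spread between their libraries.

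miR-11980 was higher in Cow 3 than in Cow 4 and Cow 2. The levels of miR-11980 (lowest, median and highest) were 5.40, 6.06 and 6.51 in Cow 3, against 3.55, 4.41 and 6.05 in Cow 4, 3.55, 4.32 and 5.11 in Cow 2 and 4.55, 5.23 and 5.79 in Cow 1. Cow 3 and Cow 2 did not overlap. The share of all miRNAs with such a gap between these cows is not given here. The difference was 1.35 (SE 0.35, adjusted p = 0.00453) for Cow 3 minus Cow 4 and 1.64 (SE 0.35, adjusted p = 0.000479) for Cow 3 minus Cow 2, while Cow 3 minus Cow 1 was 0.77 (adjusted p = 0.135) and did not pass. The pooled level was 54.4 CPM (40.4 to 71.8) from 50 reads in Cow 3, 14.2 CPM (8.65 to 21.9) from 20 reads in Cow 4, 9.14 CPM (4.87 to 15.6) from 13 reads in Cow 2 and 29.0 CPM (19.7 to 41.1) from 31 reads in Cow 1.

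miR-2890 was nearly absent from Cow 3. The levels of miR-2890 (lowest, median and highest) were 3.55, 3.83 and 4.69 in Cow 3, against 4.93, 5.67 and 6.84 in Cow 4, 3.55, 4.88 and 7.82 in Cow 2 and 4.24, 5.55 and 6.21 in Cow 1. Only 5 reads were counted in Cow 3, where 3 of the 6 libraries had none, against 64 in Cow 4, 65 in Cow 2 and 34 in Cow 1. All libraries of Cow 3 lay below all those of Cow 4, and the share of all miRNAs with such a gap between these cows is not given here. The pooled level was 5.44 CPM (1.77 to 12.7) in Cow 3, 45.3 CPM (34.9 to 57.9) in Cow 4, 45.7 CPM (35.3 to 58.3) in Cow 2 and 31.8 CPM (22.0 to 44.4) in Cow 1. In Cow 2, 44 of the 65 reads came from day 3, a day without libraries of Cow 3, and 30 of these from the morning. The pooled level of Cow 2 was 27.3 CPM (19.0 to 38.0) without that morning library and 19.0 CPM (11.7 to 29.0) from 21 reads without day 3. The difference was -1.81 (SE 0.49, adjusted p = 0.00608) for Cow 3 minus Cow 4. That of -1.45 for Cow 3 minus Cow 1 (SE 0.52, adjusted p = 0.0417) was lost with the block of cow and day (adjusted p = 0.0821), and Cow 3 minus Cow 2 was -1.19 (adjusted p = 0.0631). Cow 3 minus Cow 2 passed without the evening (adjusted p = 0.0221) or the morning (adjusted p = 0.0198) of day 4 of Cow 2, both of which had no read. The call against Cow 1 was also lost without any 1 of 7 libraries (adjusted p between 0.0561 and 0.0913), which were both of day 1 and the morning of day 3 of Cow 1, and the morning of day 1, both of day 2 and the evening of day 4 of Cow 3.

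miR-2898, an abundant member, was lower in Cow 3 than in Cow 4 and Cow 1 by a smaller amount. Its levels (lowest, median and highest) were 9.58, 10.04 and 10.37 in Cow 3, against 10.14, 10.89 and 11.21 in Cow 4, 9.85, 10.25 and 10.72 in Cow 2 and 10.42, 10.58 and 11.18 in Cow 1. Cow 3 and Cow 1 did not overlap, and the share of all miRNAs with such a gap between these cows is not given here. The log2 difference was -0.81 (SE 0.17, adjusted p = 0.000501) for Cow 3 minus Cow 4, -0.64 (SE 0.18, adjusted p = 0.00873) for Cow 3 minus Cow 1 and 0.56 (SE 0.16, adjusted p = 0.00783) for Cow 4 minus Cow 2. The call for Cow 3 minus Cow 1 was lost with library medians set equal (adjusted p = 0.0612). Each library of this miRNA had at least 107 reads, so counting error was small beside these differences.

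miR-10174-3p, the steadiest of the 10, was higher in Cow 3 than in Cow 2. Its levels (lowest, median and highest) were 10.95, 11.46 and 11.76 in Cow 3, against 10.56, 11.12 and 11.47 in Cow 4, 10.55, 10.84 and 11.37 in Cow 2 and 10.81, 10.97 and 11.32 in Cow 1, with overlap among all cows. The difference was 0.51 for Cow 3 minus Cow 2 (SE 0.15, adjusted p = 0.00729), and no other pair of cows passed. Cow 3 minus Cow 1 (adjusted p = 0.0802) passed without the evening of day 1 of Cow 3 (adjusted p = 0.0360). The F test over the cows (adjusted p = 0.0310) was lost with the block of cow and day (adjusted p = 0.0831). It was also lost without any 1 of 7 libraries (adjusted p between 0.0517 and 0.102), namely the evening of day 1 and both of day 4 of Cow 2, and the morning of day 1, the evening of day 2 and both of day 4 of Cow 3.

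miR-11976 was most often read in Cow 4, with 71 of its 118 reads. Its lowest, median and highest levels were 3.55, 4.57 and 5.76 in Cow 3, 4.35, 5.56 and 6.97 in Cow 4, 3.55, 4.46 and 5.72 in Cow 2 and 3.55, 4.13 and 5.56 in Cow 1. The ranges of all cows overlapped. The F test gave an adjusted p of 0.0433, but no pair of cows passed (0.0758 for Cow 4 minus Cow 1, with a difference of 1.32 and SE 0.44). Cow 4 minus Cow 1 passed without the morning of day 3 of Cow 1 (adjusted p = 0.0295) and without the evening (0.0343) or morning (0.0473) of day 1 of Cow 4. Cow 4 minus Cow 2 (adjusted p = 0.0673) passed without the mornings of day 2 (0.0282) or day 3 (0.0435) of Cow 2 and without the evening (0.0246) or morning (0.0292) of day 1 of Cow 4. The call of the F test was lost with the block of cow and day (adjusted p = 0.144). It was lost as well without any 1 of 14 libraries (adjusted p between 0.0502 and 0.136), namely the morning of day 1 and the evenings of days 3 and 4 of Cow 1, the evening of day 1 and both of day 4 of Cow 2, the morning of day 1 and both of day 2 of Cow 3, and the evening of day 2 and both of days 3 and 4 of Cow 4.

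miR-2478 and miR-6529a did not pass a test between cows in the fit over all libraries. The level of miR-2478 averaged 11.05 ± 0.26 (SD) over the 6 libraries of Cow 3 and 11.44 ± 0.35 over the 8 of Cow 4. It averaged 11.21 ± 0.50 over the 8 of Cow 2 and 11.66 ± 0.76 over the 6 of Cow 1. The lowest, median and highest levels of miR-6529a were 4.75, 5.34 and 6.23 in Cow 3, 3.55, 5.83 and 6.52 in Cow 4, 5.48, 6.04 and 6.93 in Cow 2 and 5.72, 6.08 and 6.89 in Cow 1. All cows overlapped in both miRNAs. With quantile normalization miR-2478 passed the F test (adjusted p = 0.0401). Its difference of -0.61 for Cow 3 minus Cow 1 (adjusted p = 0.0902) passed without the morning of day 1 (adjusted p = 0.0369) or of day 4 (adjusted p = 0.0370) of Cow 1.

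**Figure D3:**
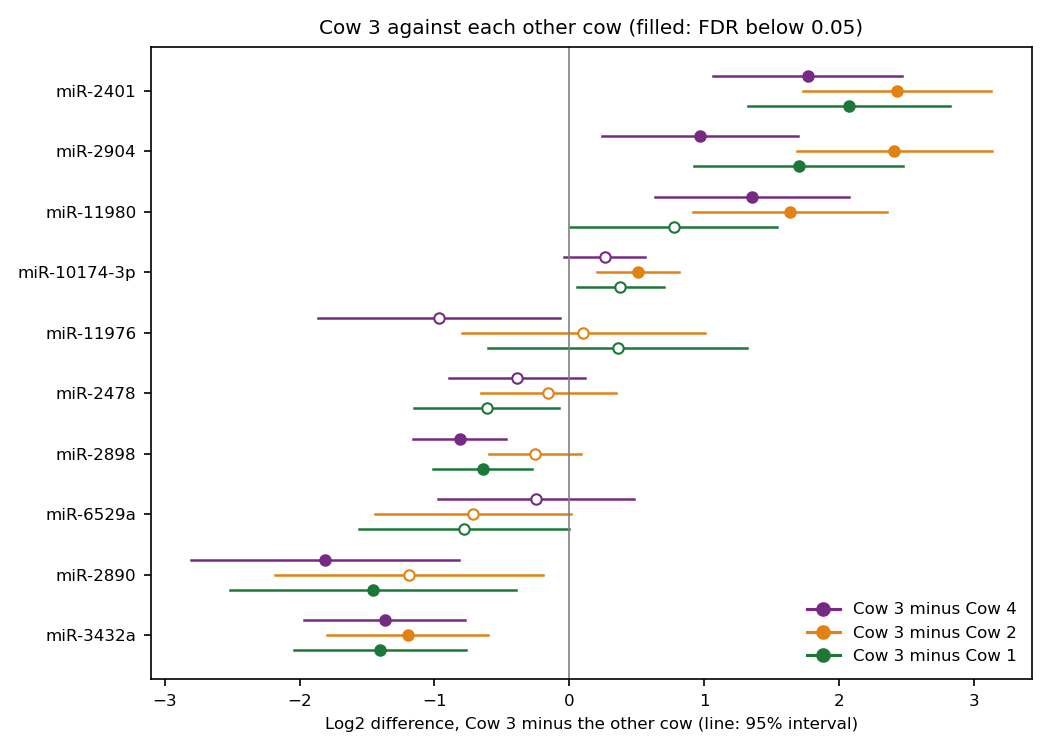
Log2 difference of Cow 3 minus Cow 4, Cow 2 and Cow 1 for each of the 10 miRNAs, with 95% intervals from limma; filled points have an FDR below 0.05. The differences run from 2.43 for miR-2401 against Cow 2 to -1.81 for miR-2890 against Cow 4.

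The scaling of the libraries bears on these counts. When the library medians were set equal, the median of all miRNAs moved by 0.17 for Cow 3 minus Cow 1, by 0.20 for Cow 3 minus Cow 2, by 0.18 for Cow 4 minus Cow 2 and by 0.15 for Cow 4 minus Cow 1. The calls among the 10 miRNAs were then 15 higher and 5 lower in the first-named cow (75% higher), against 11 higher and 7 lower as deposited (61.1% higher). Over all 132 miRNAs the split was 102 higher and 58 lower, against 70 higher and 79 lower as deposited. Under equal medians the call of miR-2890 for Cow 3 minus Cow 1 was lost (adjusted p = 0.0669), as was that of miR-2898. miR-10174-3p was then called for Cow 3 minus Cow 1 and for Cow 4 minus Cow 2, and miR-11976 for Cow 4 minus Cow 2 and Cow 4 minus Cow 1. With quantile normalization the calls among the 10 were 13 higher and 7 lower (65% higher), and 77 higher and 67 lower over all 132. The call of miR-2890 for Cow 3 minus Cow 1 was then lost (adjusted p = 0.0878), as were the F test calls of miR-2890 (adjusted p = 0.0633) and miR-11976 (adjusted p = 0.0582). Calls were made for miR-2478 in Cow 3 minus Cow 1, miR-10174-3p in Cow 4 minus Cow 2 and miR-11976 in Cow 4 minus Cow 1. None of the 18 calls turned its direction under any alternative.

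No bovine-numbered miRNA passed the test between evening and morning. With cow as a covariate, limma called 0 of 132 miRNAs at an FDR below 0.05 (0%), and 2 of 132 (1.52%) had an unadjusted p below 0.05, neither of them among the 10. The session by cow interaction also called 0 of 132 (0%), with 1 of 132 (0.758%) at an unadjusted p below 0.05 that was not among the 10.

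miR-6529a had the lowest p of the 10 between the sessions. Its lowest, median and highest levels were 3.55, 5.79 and 6.52 in the evening and 4.93, 6.14 and 6.93 in the morning, so the sessions overlapped widely. The difference of evening minus morning was -0.43 (95% interval -0.93 to 0.06, p = 0.0836, adjusted p = 0.996) in the fit with cow. That fit leaves out the pairing, so its interval and p do not measure the spread of the paired differences. An interval for the paired differences is not given here. The evening library was the lower one in 11 of 14 pairs, and the paired differences had an SD of 0.55 and ran from -1.38 to 0.40. With the pair of cow and day as a block, the session test also called none of the 10. miR-11980 had levels of 3.55, 5.25 and 6.51 in the evening and 3.55, 4.81 and 6.36 in the morning. Its difference was 0.33 (95% interval -0.17 to 0.82, adjusted p = 0.996) in the same fit without pairing, with the evening higher in 9 of 14 pairs. The differences of the other 8 miRNAs lay between -0.24 for miR-11976 and 0.21 for miR-2401. miR-11976 had the lowest p of the 10 for the interaction (p = 0.0966, adjusted p = 0.969).

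None of the 10 miRNAs passed the test for SCC either. In limma, with cow as a covariate, a slope of the level on log2 SCC was called for 3 of 132 miRNAs (2.27%), none of them among the 10. This count was 0 with the pair of cow and day as a block and 0 to 6 without single libraries. An unadjusted p below 0.05 was found for 16 of 132 (12.1%), of which miR-2890 was 1.

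miR-2890 had a slope of 0.57 per doubling of SCC (SE 0.19, p = 0.00520, adjusted p = 0.0858). On day 3 of Cow 2 it had 6.51 with 14 reads in the evening, at 300000 cells/mL, and 7.82 with 30 reads in the morning, its highest library. These and both libraries of day 3 of Cow 1 were the 4 libraries with an SCC above 100000 cells/mL. In Cow 1 on day 3 the level was 5.24 with 4 reads in the evening and 6.21 with 7 reads in the morning. Day 3 of Cow 4, at an SCC below that limit, had 5.40 with 11 reads in the evening and 6.66 with 17 reads in the morning. The slope was 0.25 (adjusted p = 0.743) without Cow 2 and 0.19 (adjusted p = 0.995) without day 3. No library of another day had an SCC above 100000 cells/mL, and with day added the slope was 0.35 (adjusted p = 0.942). miR-2898 had a slope of -0.14 per doubling (SE 0.07, adjusted p = 0.371), and those of the other 8 miRNAs lay between -0.08 for miR-2904 and 0.18 for miR-2401.

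**Figure D4:**
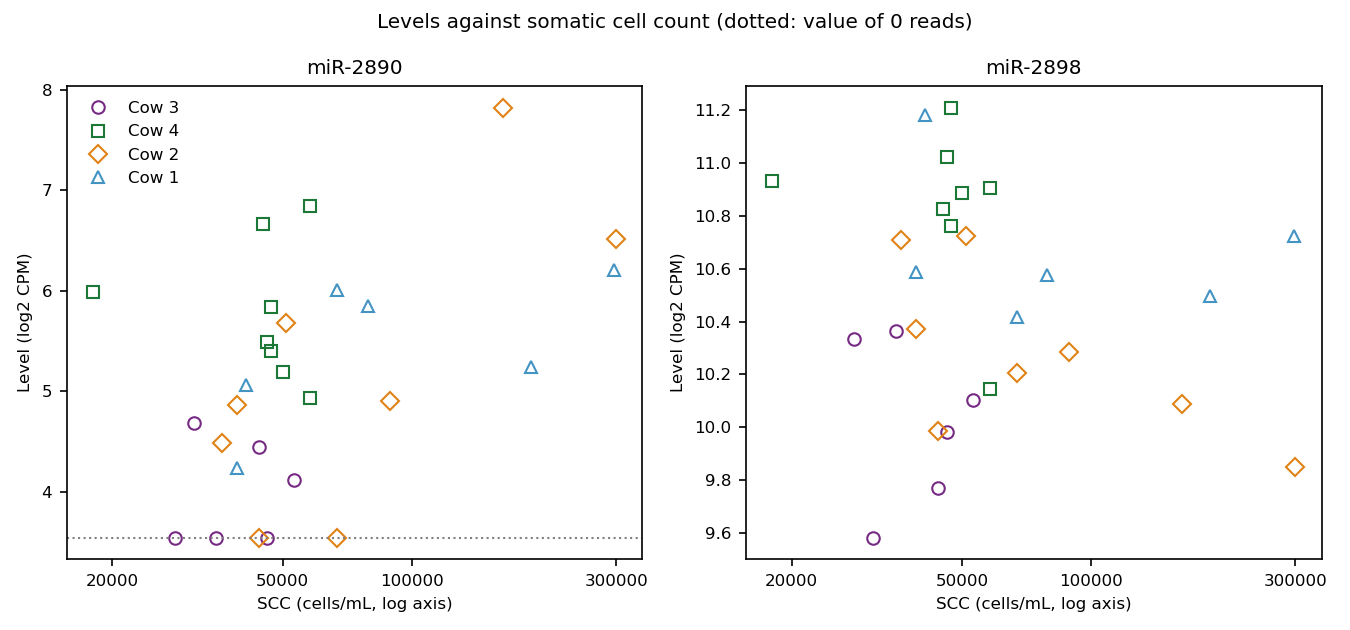
Level (log2 CPM) of miR-2890 (left) and miR-2898 (right) against SCC (cells/mL, log axis) in the 28 libraries, with a symbol for each cow; the dotted line at 3.55 is the value of 0 reads. The 2 highest SCC values of Cow 2 carry miR-2890 levels of 6.51 and 7.82, and the slope of miR-2890 on SCC had an adjusted p of 0.0858.

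The collection day gave no call among the 132 miRNAs (0%) in the F test with cow as a covariate, while 14 of 132 (10.6%) had an unadjusted p below 0.05, miR-2890 (p = 0.0419) and miR-6529a (p = 0.0499) among them. The median level of miR-2890 was 4.90 on day 1, 5.05 on day 2, 6.36 on day 3 and 4.46 on day 4. Day 3 was the highest, and it holds no library of Cow 3, where this miRNA was lowest. Within cows the difference of day 3 minus day 1 was 1.00 (SE 0.45, adjusted p = 0.252), which did not pass, in a contrast that called 3 of 132 miRNAs (2.27%). The median level of miR-6529a was 5.83 on day 1, 5.20 on day 2, 6.15 on day 3 and 6.14 on day 4, and its adjusted p in the F test was 0.470.

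No pair of the 10 miRNAs passed a test of moving together from library to library. With cow means removed, Pearson's r of the 45 pairs had a median of 0.07, against 0.02 over the 4851 pairs of low-numbered miRNAs, 0.05 over the 253 pairs of the other high-numbered miRNAs and 0.00 over the 8646 pairs of all miRNAs. Libraries were exchanged within cows in 100000 permutations, two-sided, and no pair passed after adjustment over the 45 pairs. The smallest adjusted p was 0.206.

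The pair with the highest r was miR-2898 and miR-2904. Their r was 0.55 (permutation p = 0.00500, adjusted p = 0.206) and rho was 0.49 (permutation p = 0.0144), positive in 4 of 4 cows, and r was 0.46 without the 2 libraries farthest from the median of miR-2898. In Cow 3 miR-2904 was higher and miR-2898 lower than in Cow 4 and Cow 1, while both were higher in Cow 4 than in Cow 2, and r was 0.11 with cow means kept. miR-2401 and miR-10174-3p had the lowest r, at -0.52 (permutation p = 0.00916, adjusted p = 0.206) with rho = -0.53 (permutation p = 0.00632), negative in 4 of 4 cows, and r was -0.59 without the 2 farthest libraries. With cow means kept the sign turned (r = 0.25). Their r with the log2 normalization factor of the library did not pass after adjustment, at r = 0.55 for miR-10174-3p (permutation p = 0.00417, adjusted p over 30 tests = 0.104) and r = -0.55 for miR-2401 (permutation p = 0.00693, adjusted p = 0.104). With library medians set equal, r between them was -0.34. miR-2478 and miR-2890 had r = -0.46 (permutation p = 0.0226, adjusted p = 0.339), negative in 3 of 4 cows.

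**Figure D5:**
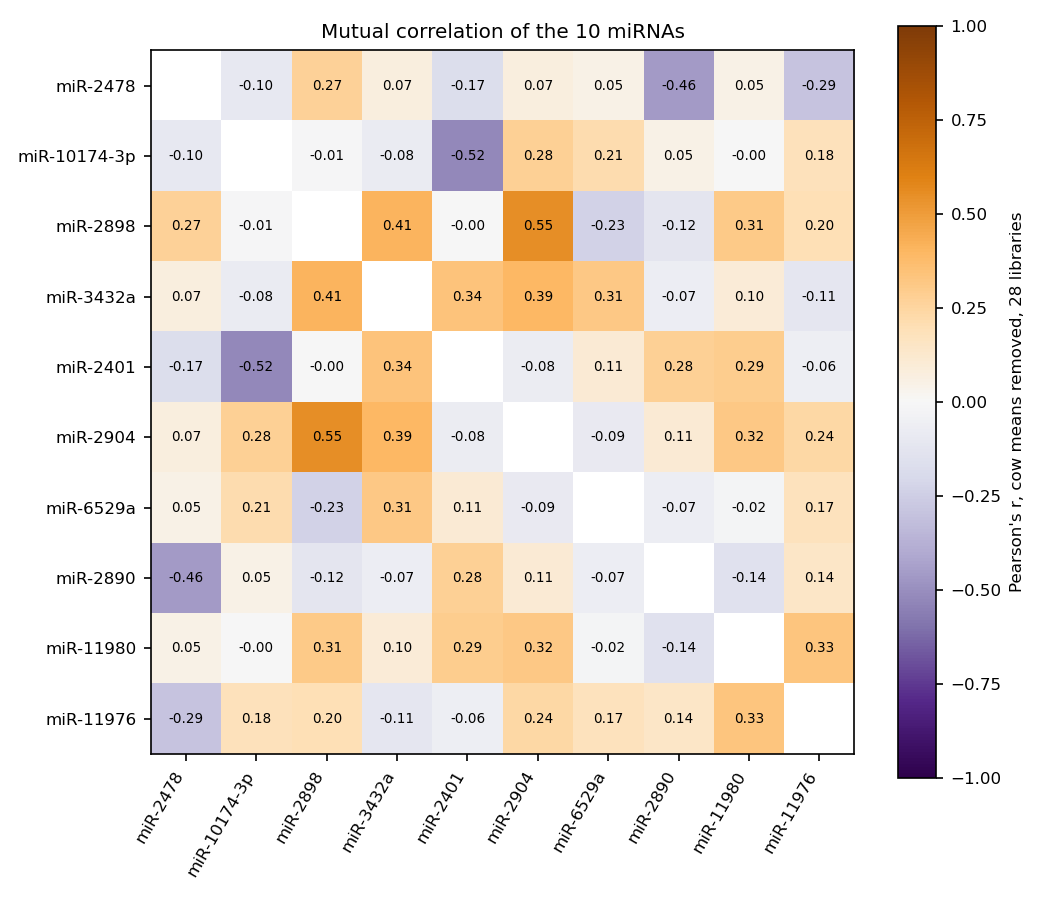
Pearson's r between the levels of each pair of the 10 miRNAs over the 28 libraries after removal of cow means, with the colour scale from -1 to 1. The values run from -0.52 (miR-2401 and miR-10174-3p) to 0.55 (miR-2898 and miR-2904), and none passed the test after adjustment over the 45 pairs.

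The miRNAs most alike to each member were sought over all 131 others by r over the 28 libraries with cow means removed, as a description without a test. For miR-2478 they were miR-183 (0.78), miR-151-3p (0.74) and miR-182 (0.74), and for miR-10174-3p they were miR-23a (0.77), miR-181a (0.71) and miR-664b (0.71). miR-2401 was most alike to miR-6517 (0.70), let-7d (0.66) and miR-11971 (0.63). miR-2898 was most alike to miR-197 (0.65), miR-2904 (0.55) and miR-885 (0.53), and miR-2904 to miR-342 (0.57), miR-2898 (0.55) and miR-197 (0.54).

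For miR-3432a the 3 most alike were let-7d (0.57), miR-423-5p (0.55) and miR-3613a (0.52), and for miR-2890 they were miR-320a (0.59), miR-1306 (0.47) and miR-12014 (0.45). miR-11976 was most alike to miR-181a (0.56), miR-193a-5p (0.47) and miR-652 (0.47), and miR-6529a to miR-7 (0.51), miR-429 (0.50) and miR-30f (0.46). The lowest values were those of miR-11980, with let-7a-5p (0.44), let-7e (0.43) and let-7f (0.38). Of these 30 partners, 2 were themselves among the 10, namely miR-2904 for miR-2898 and miR-2898 for miR-2904. The libraries share normalization, and low levels carry more counting error.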

How the data were processed

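Small RNA from milk EVs was sequenced in 28 libraries. The authors cleaned the reads, filtered sequences by CPM, matched them to bovine mature miRNAs of miRBase, grouped isomiRs and deposited log2 CPM values made with edgeR for 132 miRNAs. The genome build is not given in the sources used here. On these values limma 3.58.1 (R 4.3.3) was run with a mean-variance trend, and its two-sided p-values were adjusted after Benjamini and Hochberg over the 132 miRNAs. Reads were worked back with a prior of 2, and all 3696 values came out whole within 0.01. They served for totals, zeros, pooled CPM and 1 alternative fit (limma-voom). All 10 miRNAs are named, with the 3 most alike to each. Members, lists and tests were chosen with earlier results of these data known. Correlations used Python 3.11.15, numpy 2.4.6, pandas 2.3.3 and scipy 1.17.1. The fits for cow, session, SCC and day and the correlation test were run on simulated data with known effects. The simulated libraries of the fits were independent, without the pairing of milkings or a floor at 0 reads. They therefore do not test how the fits behave under these features.

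The labels give evening and morning libraries of the same cow and day, which pairs them. Residuals after cow and session correlated by 0.0774 on average within the 14 pairs and by -0.203 between other libraries of the same cow. Removal of the cow means itself lowers both averages, so they do not measure independence. In fits with the pair as a block, the estimated correlation within pairs was 0.28 for cow, 0.23 for SCC and 0.28 for day. The main fits for cow, SCC and day treat the 28 libraries as independent. A fit with the pair as a block was an alternative, beside other scalings, added constants of 10 and 50 CPM, a minimum mean of 7, other covariates and variance settings, single sessions and the omission of cows, day 3 or single libraries. The alternatives for contrasts of single cows and for the interaction were added after seeing the data.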

Additional observations from a re-analysis of the deposited data

Results flagged for a closer look

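In groups of 6 or 8 libraries of a cow, single libraries stood far below the rest for 3 of the 10 miRNAs. miR-2401 had 4.40 (log2 CPM) in the morning of day 1 of Cow 4, where the next lowest library had 5.62. miR-2898 had 10.14 in the same library, where the next lowest had 10.76. miR-3432a had 7.39 in the evening of day 1 of Cow 1, where the next lowest had 8.30. These are 3 of 40 groups looked at, and chance marks about 1 group in 20.

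miR-2478 ran in opposite directions between sessions in 2 cows. Evening minus morning averaged -0.31 in Cow 4, where the evening was lower in 4 of 4 pairs, and 0.71 in Cow 1, where it was higher in 3 of 3 pairs. The 3 differences of Cow 1 were 0.29 on day 1, 0.10 on day 3 and 1.75 on day 4, and their mean was 0.19 without day 4. The test of the difference over all 4 cows, the session by cow interaction in limma, gave p = 0.177 and an adjusted p of 0.969, so it did not pass. The contrast of Cow 4 with Cow 1 alone was not tested. Such opposite cows were found for 13 of the 132 miRNAs.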

How the results depend on the processing

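Against 62 miRNAs and 8 members called between cows, 32 and 3 were called without Cow 3, 29 and 5 in evening libraries alone, 15 and 2 in morning libraries alone, and 3 of 4 members among miRNAs with a mean of at least 7. Without single libraries the counts were 57 to 68 and 6 to 8. The 18 member calls between single cows became 7 of 24 tests from a mean of 7 upwards, 13 in evening and 5 in morning libraries alone, and 16 to 20 without single libraries. For these settings of the contrasts, the counts over all miRNAs are not given here. The same holds for the F test from a mean of 7 upwards. Those member counts thus have no background to be read against. For SCC, 3 of 132 miRNAs became 1 with no variance trend, with quantile normalization or with no cow term, 6 from a mean of 7 upwards or without Cow 4, 5 without Cow 3, and 0 without Cow 1, Cow 2 or day 3, with day added or with the pair of cow and day as a block (0 to 6 without single libraries). The libraries whose omission gave 0 or 1 were both of day 3 and the morning of day 4 of Cow 1 and the mornings of days 1 and 3 of Cow 2, and those that gave 5 or 6 were the morning of day 2 and the evening of day 4 of Cow 3, the morning of day 1 of Cow 4 and the morning of day 2 of Cow 2. For day, 0 became 2 with equal medians, 1 from a mean of 7 upwards and 4 without Cow 4 (0 to 1 without single libraries, with 1 without the morning of day 2 of Cow 3). No member was called for session, SCC, day or the interaction under any alternative. The block reduced the member calls between single cows to 16 and the F test calls among members to 6, and it changed no other call of a member. Its calls between cows over all 132 miRNAs are not given here. With cow means kept, 5 of 45 member pairs passed. The uncalled effects of session or SCC had another sign under at least 1 setting for 12 of 20, among them miR-11976 for session without Cow 2 (0.10), and miR-2401 for SCC with no cow term (-0.24) or without day 3 (-0.23). The causes were not tested. The levels of the 6 low members rest on 114 to 366 reads over 28 libraries, with a median counting SD of 0.41 beside a median SD within cows of 0.67, and the part of depth in the missing calls was not tested.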
